A study of Mus musculus with 6 samples.

Results

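The urea cycle and the enzymes that supply or remove its ammonia were followed in mouse liver as 10 named genes, out of 48432 genes in the deposited table. They were chosen by name: the cycle enzymes Otc, Ass1, Asl and Arg1, the activator enzyme Nags, the mitochondrial carriers Slc25a15 and Slc25a13, and the glutamate and glutamine enzymes Glud1, Gls2 and Glul. All 10 were measured in all 6 libraries and passed the filter on low counts. The study set a liver-specific Klf15 knockout (Li-KO, 3 libraries) against mice with the Albumin-Cre transgene (Ctl, 3 libraries), in whole liver RNA of 10-week-old animals. Albumin-Cre is a Cre recombinase gene under the albumin promoter, which is active in hepatocytes, and its activity in other liver cells was not measured here. Klf15 is a Kruppel-like zinc finger transcription factor. The labels give no sex, feeding state or time of day, do not describe the Klf15 allele, and do not state whether the Li-KO mice carry the same Cre transgene. They also do not say that the libraries of a group came from separate mice, so p-values measure only the spread between these libraries.

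Ammonia from amino acids is detoxified in hepatocytes by the urea cycle. Nags makes N-acetylglutamate, which switches on carbamoyl phosphate synthetase (Cps1) in the mitochondrion, and Otc joins carbamoyl phosphate to ornithine to give citrulline. Slc25a15 exchanges ornithine for citrulline across the inner mitochondrial membrane. Slc25a13 (citrin) brings out the aspartate that Ass1 couples to citrulline, after which Asl splits argininosuccinate and Arg1 releases urea. Glud1 and Gls2 release ammonia from glutamate and glutamine. Hepatocytes near the portal vein carry most of the cycle and Gls2, whereas those next to the central vein carry Glul, which fixes remaining ammonia into glutamine.

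Levels are given as CPM, a count scaled to the size of its library with edgeR, or as FPKM, which also divides by transcript length. Libraries held 30132499 to 42782318 fragments assigned to genes, and the lowest count of any of the 10 genes in any library was 2195, for Nags. Klf15 (ENSMUSG00000030087.11) was at 346, 174 and 196 CPM across the Ctl libraries, numbered 0, 1 and 2 in that order here and below, against 54.3, 41.6 and 51.8 CPM across the Li-KO libraries of the same numbers, a log2 fold change of -2.28 ± 0.26 (SE; edgeR adjusted p = 0.00275). All 3 Li-KO libraries were below all 3 Ctl libraries. Of 9 hepatocyte markers tested 1, Tdo2, was called lower and none higher. At an unadjusted p under 0.05, 4 were higher, and DESeq2 called 4 higher and 1 lower. The summed level of the hepatocyte list was 24980 to 31290 CPM across the Ctl libraries, against 29860 to 34620 CPM in Li-KO. Markers of other cells were low but present: the Kupffer cell and macrophage list summed to 260 to 397 CPM over the 6 libraries, sinusoidal endothelium to 457 to 732, stellate cells and fibroblasts to 539 to 667, lymphocytes to 1.24 to 8.19 and neutrophils to 1.73 to 4.32. The erythroid list was lower in all 3 Li-KO libraries (295 to 589 CPM against 739 to 810). Of its 5 genes 0 were called by edgeR, all 5 had an unadjusted p under 0.05 and DESeq2 called 3. The bile duct list summed to 33.2 to 63.5 CPM in Ctl against 47.4 to 151 in Li-KO, and 1 of its 5 genes, Sox9, was called lower. The other 4 were not called and had log2 fold changes from 0.17 to 1.36, and 2 were higher at an unadjusted edgeR p under 0.05. The part of the erythroid and bile duct RNA in the results was not tested. Of other organs, the kidney tubule list summed to 1.43 to 13.0 CPM, pancreas to 5.87 to 12.5 and small intestine to 102 to 179, where Vil1 was called higher. Slc12a1 and Kap of kidney tubule, Cpa1, Prss2 and Pnlip of pancreas and Sis and Alpi of intestine were at 0 in all 6 libraries.

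Of the 4 genes that differed between the groups by the test used here (edgeR, adjusted p under 0.05), 2 have an entry in the RefSeq promoter table, and the 250 bases before their starts are shown because the knocked-out factor belongs to a family known to bind CACCC and GC boxes. The sequences are from RefSeq, build GRCm38.p6, written 5′ to 3′ on the gene's strand, with each CACCC (on either strand) in capitals. Otc lies on the plus strand and its window is chrX:10252055-10252304, and Slc25a13 lies on the minus strand with its window at chr6:6217174-6217423.
Otc: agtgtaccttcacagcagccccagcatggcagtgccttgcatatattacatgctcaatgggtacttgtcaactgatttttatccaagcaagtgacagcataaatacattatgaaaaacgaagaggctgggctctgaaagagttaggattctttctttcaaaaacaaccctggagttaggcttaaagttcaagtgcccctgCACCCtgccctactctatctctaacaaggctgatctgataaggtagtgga
Slc25a13: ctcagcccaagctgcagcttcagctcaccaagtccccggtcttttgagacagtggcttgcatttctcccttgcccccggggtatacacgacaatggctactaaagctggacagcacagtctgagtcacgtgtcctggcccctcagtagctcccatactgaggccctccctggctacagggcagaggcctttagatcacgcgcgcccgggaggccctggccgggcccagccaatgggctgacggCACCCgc
The Otc window held 1 CACCC, whose first base lies 50 bases before the start, and the Slc25a13 window held 1, 7 bases before the start. Neither window held GGGCGG. Both motifs were searched on both strands (reverse complements GGGTG and CCGCCC), and neither contains the other. The Otc window was 43.6% G and C and that of Slc25a13 62.8%, against a median of 52.4% over all windows. In all, 7 of the 10 genes had an entry (Asl, Arg1 and Gls2 had none), and 5 of the 7 held CACCC, which 52.0% of 32851 windows hold. GGGCGG was in 5 of the 7, against 32.7% of all windows. A match in such a window is a description of the letters only.

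Between the groups, 2 of the 10 genes were lower in the knockout, Otc and Gls2, 2 were higher, Asl and Slc25a13, and 6 did not pass the test. Otc, the mitochondrial enzyme that makes citrulline, was 4.99-fold lower, and Gls2, the liver glutaminase, 2.35-fold lower. Asl, which makes arginine, was 1.88-fold higher, and Slc25a13, the aspartate carrier, 1.41-fold higher. Over all 16533 genes tested, 6.11% were called higher and 5.9% lower by edgeR (adjusted p under 0.05). The Ctl and Li-KO libraries did not overlap for 6 of the 10 genes, 3 higher (Asl, Slc25a15, Slc25a13) and 3 lower (Otc, Glud1, Gls2). Over all genes, 17.4% were apart with Li-KO higher and 17.8% with Li-KO lower. The median log2 fold change of the 10 was 0.09, against -0.01 over all genes. In whole liver, fewer cells of a type and less RNA per cell cannot be told apart.

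**Figure D1:**
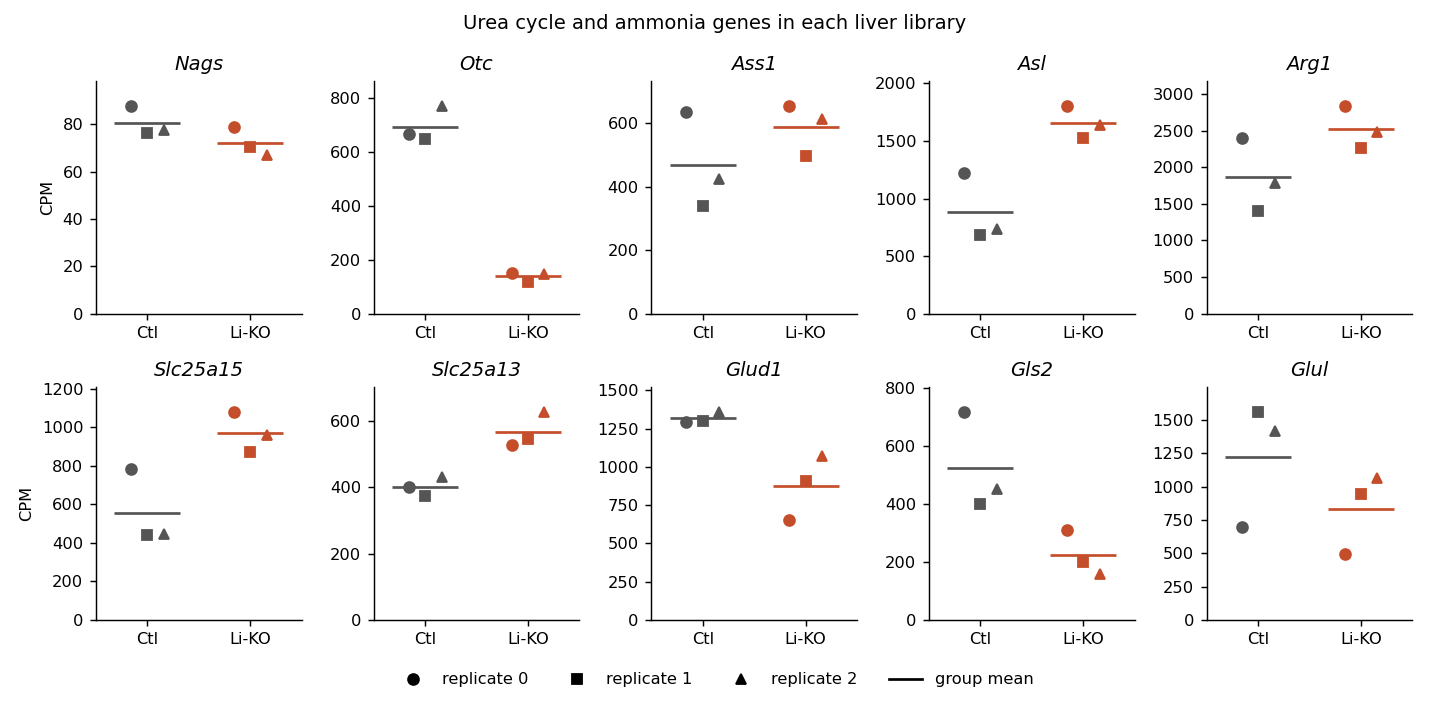
CPM of each of the 10 genes (vertical axis, from 0, a separate scale per gene) in the 3 Ctl and 3 Li-KO libraries, with a marker for each replicate number and a line at the group mean. The Otc points of Li-KO lie between 117 and 151 CPM, under all Ctl points, and Ctl replicate 0 stands above the other Ctl libraries for Ass1, Asl, Arg1, Slc25a15 and Gls2.

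Otc (ENSMUSG00000031173.13, mm10 chrX:10252305-10321024, plus strand) was the gene with the largest change of the 10. The Ctl libraries held 663, 646 and 769 CPM of it. The Li-KO libraries held 151, 117 and 149 CPM. The groups were far apart, and the lowest Ctl library was above 4 times the highest Li-KO library. The log2 fold change was -2.32 ± 0.16 (SE; 95% interval -2.67 to -1.96; edgeR adjusted p = 0.000495). By p-value Otc ranked 6 among 16533 genes, and by size it was the 133rd most negative. The fall was called whichever of the 6 libraries was left out, with log2 fold changes from -2.37 to -2.21 and a highest adjusted p of 0.00409.

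Downstream of Otc, the 3 cytosolic enzymes had higher mean levels in the knockout, and Asl alone passed the test. Ass1 (ENSMUSG00000076441.9, chr2:31470207-31520672, plus strand) was at 636, 340 and 424 CPM across the Ctl libraries, against 654, 498 and 612 CPM in Li-KO. The groups overlapped, since Ctl replicate 0 lay within the Li-KO range, and the log2 fold change was 0.33 ± 0.23 (SE; 95% interval -0.19 to 0.86; edgeR adjusted p = 0.377). Asl (ENSMUSG00000025533.15, chr5:130011258-130029247, minus strand) was at 1220, 687 and 731 CPM across the Ctl libraries, against 1804, 1525 and 1636 CPM in Li-KO. All 3 Li-KO libraries were above all Ctl libraries, and the log2 fold change was 0.91 ± 0.23 (SE; 95% interval 0.39 to 1.44; edgeR adjusted p = 0.0390). That call held without Ctl replicate 0 (adjusted p = 0.00704) and was lost when any of the other 5 libraries was left out (adjusted p 0.0542 to 0.130). Arg1 (ENSMUSG00000019987.8, chr10:24915221-24927484, minus strand) was at 2403, 1403 and 1782 CPM across the Ctl libraries, against 2837, 2256 and 2483 CPM in Li-KO. Ctl replicate 0 again lay within the Li-KO range, and the log2 fold change was 0.44 ± 0.22 (SE; 95% interval -0.06 to 0.94; edgeR adjusted p = 0.220).

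The mitochondrial carriers were both higher in every Li-KO library than in any Ctl library, by amounts that fell on either side of the threshold. Slc25a15, the ornithine and citrulline exchanger (ENSMUSG00000031482.9, chr8:22375551-22398597, minus strand), was at 782, 441 and 445 CPM across the Ctl libraries, against 1079, 872 and 961 CPM in Li-KO. The gap between the groups ran from Ctl replicate 0, which stood above the other Ctl libraries, to Li-KO replicate 1. Its log2 fold change was 0.80 ± 0.24 (SE; 95% interval 0.27 to 1.34; edgeR adjusted p = 0.0595), and it passed without Ctl replicate 0 (log2 fold change 1.13, adjusted p = 0.00881), by limma-voom (adjusted p = 0.0427) and by DESeq2 (adjusted p = 0.00503). Slc25a13 (ENSMUSG00000015112.15, chr6:6041218-6217173, minus strand) was at 401, 374 and 430 CPM across the Ctl libraries, against 527, 546 and 627 CPM in Li-KO. Both groups were tight, and the log2 fold change was 0.50 ± 0.13 (SE; 95% interval 0.20 to 0.80; edgeR adjusted p = 0.0447). It passed without Li-KO replicate 0 (adjusted p = 0.0496) and was lost when any of the other 5 libraries was left out (adjusted p 0.0733 to 0.144).

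At the entry to the cycle, Nags and Cps1 gave little to compare. Nags (ENSMUSG00000048217.11, chr11:102145513-102149477, plus strand) was at 87.7, 76.5 and 77.6 CPM across the Ctl libraries, against 78.7, 70.5 and 66.9 CPM in Li-KO. The groups overlapped in CPM, and the log2 fold change was -0.16 ± 0.12 (SE; 95% interval -0.43 to 0.11; edgeR adjusted p = 0.397). An antisense gene, Gm11586, overlaps an exon of Nags and had 26 to 57 fragments per library, against 2195 to 3661 for Nags. Cps1, the enzyme that Nags activates, was skipped by the authors' quantification in all 6 libraries, and no value is given for it here.

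**Figure D2:**
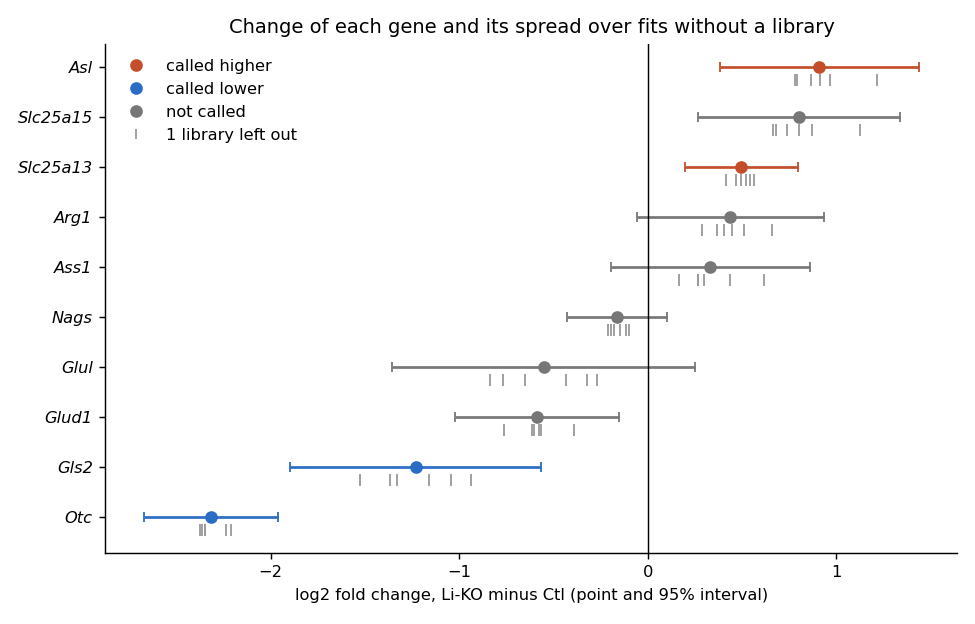
Log2 fold change, Li-KO minus Ctl (horizontal axis), of each gene with its 95% interval, with ticks beneath for the 6 fits that each left out a library. The Otc interval, -2.67 to -1.96, lies apart from those of all 9 other genes, and the ticks of Asl, Slc25a15 and Gls2 spread more than those of Slc25a13.

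Gls2 and Glud1, which release ammonia from glutamine and glutamate, had lower means in the knockout, and of this pair Gls2 alone passed the test. Gls2 (ENSMUSG00000044005.13, chr10:128194457-128210004, plus strand) was at 717, 401 and 452 CPM across the Ctl libraries, against 310, 200 and 159 CPM in Li-KO. All Li-KO libraries were below all Ctl libraries, although each group spread widely, with a coefficient of variation of 32.5% in Ctl and 35.2% in Li-KO. The log2 fold change was -1.23 ± 0.29 (SE; 95% interval -1.90 to -0.57; edgeR adjusted p = 0.0325). The call held without Li-KO replicate 0 (adjusted p = 0.0197) and was lost when any of the other 5 libraries was left out (adjusted p 0.0531 to 0.119). An exon of Gls2 overlaps Spryd4 on the opposite strand, which was called higher (31.9, 30.2 and 29.7 CPM across the Ctl libraries, 56.1, 53.3 and 56.2 CPM in Li-KO; edgeR adjusted p = 0.00421), and Spryd4 counts were 4.44% to 35.4% of those of Gls2. No label or header states the strand setting of the counting, so the level of Gls2 may hold reads of Spryd4.

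Glud1, glutamate dehydrogenase (ENSMUSG00000021794.15, chr14:34310727-34345265, plus strand), was at 1291, 1303 and 1358 CPM across the Ctl libraries. The Li-KO libraries held 652, 907 and 1073 CPM. The Ctl libraries were nearly level (coefficient of variation 2.74%) and all stood above the Li-KO libraries, which spread more (24.2%). The log2 fold change was -0.59 ± 0.19 (SE; 95% interval -1.02 to -0.15; edgeR adjusted p = 0.0812). The gene was called without Li-KO replicate 2 (log2 fold change -0.76, adjusted p = 0.0332) and by DESeq2 (adjusted p = 0.0209). The pseudogene Glud-ps held 2.42% to 4.30% as many counts as Glud1, so some reads of the pair may be split between them.

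Glul, glutamine synthetase (ENSMUSG00000026473.15, chr1:153899944-153909723, plus strand), was at 695, 1561 and 1419 CPM across the Ctl libraries, against 498, 948 and 1063 CPM in Li-KO. Teddm2, which overlaps it on the opposite strand, had at most 10 fragments in a library. Replicate 0 was the lowest library for Glul in each group, at 0.466 and 0.495 times the mean of the other libraries of its group, and the groups overlapped. The log2 fold change was -0.55 ± 0.35 (SE; 95% interval -1.35 to 0.25; edgeR adjusted p = 0.340), and the interval includes 0 as well as a fall of more than 1 log2 unit.

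On the FPKM scale, which allows levels of different genes to be compared, Arg1 was the highest of the 10 genes in both groups and Nags the lowest. In Ctl, Arg1 was at 935 ± 267 FPKM (SD, n = 3) and Nags at 35.5 ± 2.74. Between them stood Asl (355 ± 124), Glul (339 ± 129) and Glud1 (319 ± 14.9), whose ranges overlapped. Otc (216 ± 19.7), Ass1 (207 ± 73.8), Gls2 (164 ± 54.6), Slc25a15 (127 ± 40.0) and Slc25a13 (105 ± 7.06) followed, each overlapping its neighbour among these 5, and Slc25a13 did not overlap Nags. Glud1 was above Otc in every Ctl library with no overlap.

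In Li-KO, the order changed below Arg1 (1284 ± 146 FPKM; SD, n = 3) and Asl (651 ± 49.2), which no longer overlapped the gene after it. Ass1 (262 ± 35.9), Glul (230 ± 82.6), Slc25a15 (212 ± 23.5) and Glud1 (203 ± 45.9) overlapped their neighbours. Below them, with no overlap between neighbours, stood Slc25a13 (141 ± 8.10), Gls2 (66.9 ± 21.8), Otc (42.6 ± 5.44) and Nags (29.8 ± 1.38). Otc thus stood 5 in the order of the Ctl means and 9 in that of the Li-KO means. For Nags, all 3 Li-KO libraries (28.7 to 31.3 FPKM) were below all 3 Ctl libraries (33.6 to 38.6 FPKM), unlike in CPM.

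**Figure D3:**
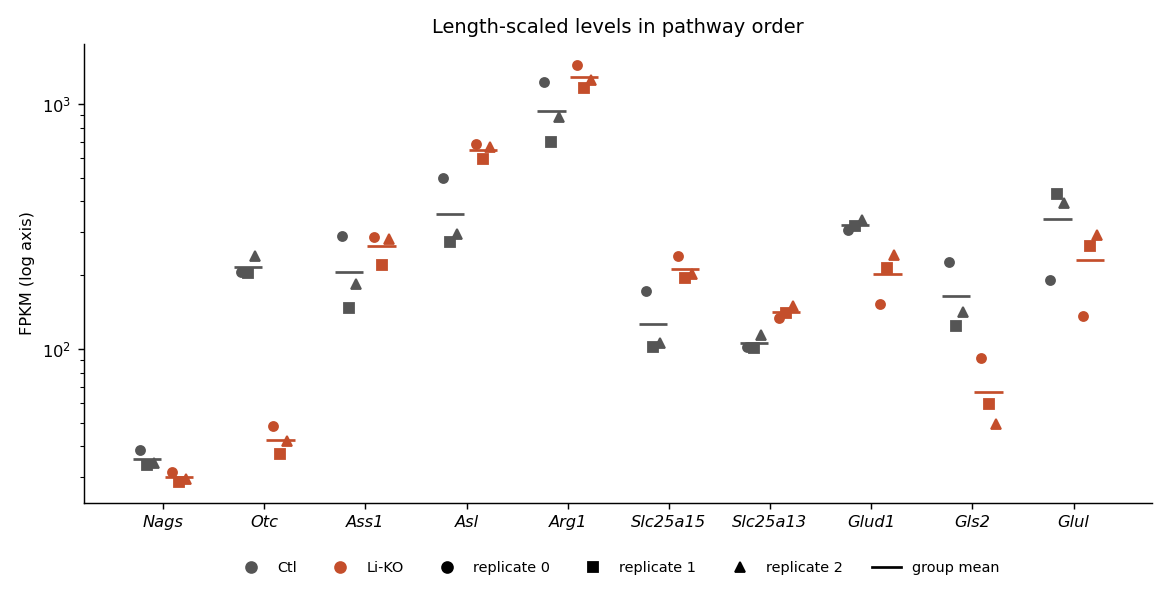
FPKM (log axis) of the 10 genes in pathway order in Ctl (grey) and Li-KO (orange), with a marker per library and a line at the group mean. Otc falls from 216 to 42.6 FPKM between the group means while Arg1 stays the highest gene in both groups.

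Ratios within a library compare a pair of genes without any scaling between libraries. The pairs were neighbouring steps (Otc to Ass1, Asl to Ass1) and synthesis against breakdown of glutamine (Glul to Gls2). The FPKM ratio of Otc to Ass1 was 0.709, 1.39 and 1.30 across the Ctl libraries, against 0.169, 0.169 and 0.150 in Li-KO. The 3 Li-KO ratios were nearly equal and all below the Ctl ratios, a mean log2 difference of -2.74. Asl to Ass1 was 1.72, 1.85 and 1.60 across the Ctl libraries, against 2.42, 2.69 and 2.38 in Li-KO, apart in every library, with a mean log2 difference of 0.54. The Asl to Ass1 ratio of Ctl replicate 0 lay between those of the other Ctl libraries. Glul to Gls2 was 0.849, 3.47 and 2.79 across the Ctl libraries, against 1.49, 4.39 and 5.88 in Li-KO, which overlapped, with a mean log2 difference of 0.74. An exact two-sided permutation test gave p = 0.1 for each of the former ratios (adjusted over 3 ratios, 0.15) and p = 0.5 for Glul to Gls2. With 20 arrangements of 3 against 3 libraries, 0.1 is the smallest p the design allows.

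**Figure D4:**
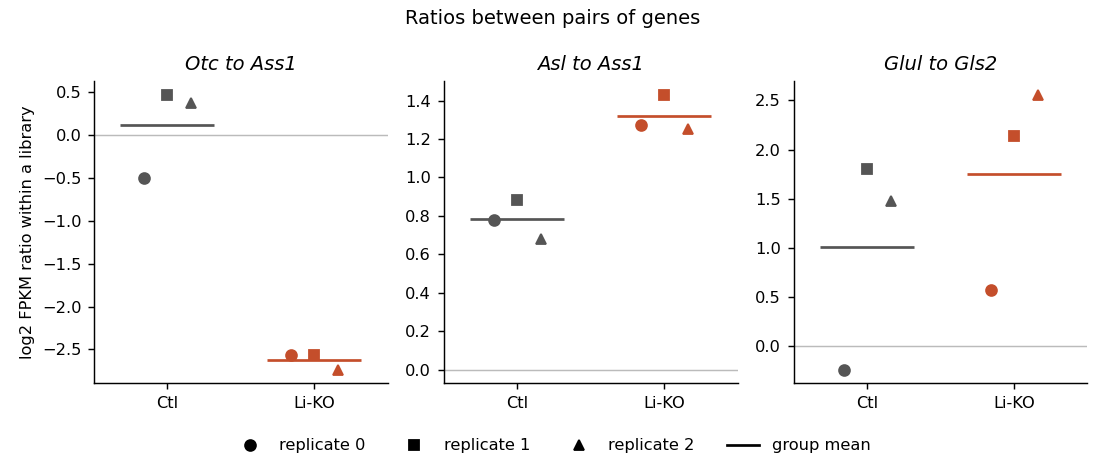
Log2 of the FPKM ratio within each library (vertical axis, a separate scale per panel) for Otc to Ass1, Asl to Ass1 and Glul to Gls2, with a line at the group mean. The Li-KO points lie below the Ctl points for Otc to Ass1, above them for Asl to Ass1, and overlap them for Glul to Gls2, where 2 of the 3 Li-KO points are above all Ctl points.

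Within the Ctl group, the genes fell into those that were high in Ctl replicate 0 and those that were not. That library was at 1.67 times the mean of the other Ctl libraries for Ass1, 1.72 for Asl, 1.51 for Arg1, 1.77 for Slc25a15 and 1.68 for Gls2. For Otc, Slc25a13 and Glud1 the same ratio was 0.938, 0.999 and 0.970, and for Nags and Glul it was 1.14 and 0.466. Klf15 itself was at 346 CPM in this library, against 174 and 196 CPM in the other Ctl libraries. The library was also high for Pck1, the enzyme that commits carbon to gluconeogenesis, at 2.68 times, for Tat, tyrosine aminotransferase, at 2.91 times, and for Sds, serine dehydratase, at 5.59 times. Li-KO replicate 0 was likewise the highest Li-KO library for Ass1, Asl, Arg1, Slc25a15 and Gls2, by smaller ratios except for Gls2. It was at 1.18, 1.14, 1.20, 1.18 and 1.73 times the mean of the other Li-KO libraries. For Pck1, Tat and Sds its ratio was 1.25, 1.47 and 1.40. For Otc, Slc25a13, Glud1 and Nags it was 1.14, 0.899, 0.658 and 1.145. No label separates Ctl replicate 0 from the other Ctl libraries, and the part of these levels in the results was not tested. Without it, the edgeR log2 fold change of Ass1 was 0.62 (adjusted p = 0.0782) and that of Arg1 0.66 (adjusted p = 0.0734). The fits without it called Asl and Slc25a15 higher and Otc lower.

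Beyond these genes, 40 others of nitrogen metabolism were listed: carriers, carbonic anhydrases, aminotransferases, ammonia-releasing enzymes and users of arginine or carbamoyl phosphate. Of 35 tested, 8 were called higher, 4 lower and 23 did not pass, with a median log2 fold change of 0.20 against -0.01 over all genes. Over all genes tested, edgeR called 6.11% higher and 5.9% lower. Libraries of the groups were apart for 10 of the 35 with Li-KO higher and 6 with Li-KO lower, against 17.4% and 17.8% over all genes. Prodh, proline dehydrogenase, was at 346, 279 and 276 CPM across the Ctl libraries, against 24.98, 60.4 and 29.9 CPM in Li-KO (log2 fold change -2.96 ± 0.32, SE; edgeR adjusted p = 0.00214). Slc38a3, a glutamine carrier of the hepatocyte membrane, was at 2262, 1662 and 1856 CPM across the Ctl libraries, against 775, 646 and 442 CPM in Li-KO (-1.63 ± 0.23; adjusted p = 0.00606). Gpt, alanine aminotransferase, was at 424, 318 and 341 CPM across the Ctl libraries, against 219, 214 and 195 CPM in Li-KO (-0.79 ± 0.14; adjusted p = 0.0142). None of these 3 overlapped between the groups. Cad, the cytosolic enzyme that uses carbamoyl phosphate for pyrimidines, was at 59.5, 60.1 and 56.5 CPM across the Ctl libraries, against 38.7, 41.1 and 38.4 CPM in Li-KO (-0.57 ± 0.11; adjusted p = 0.0152), also without overlap.

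Of the 8 higher genes, Slc25a12, the paralog of Slc25a13 that also carries aspartate, had the smallest p. It was at 28.0, 22.0 and 27.6 CPM across the Ctl libraries, against 45.8, 45.2 and 47.6 CPM in Li-KO (log2 fold change 0.84 ± 0.13, SE; edgeR adjusted p = 0.00925), with no overlap. Per length it stayed far below Slc25a13, at 5.57 ± 0.09 FPKM in Li-KO (SD, n = 3) against 141 ± 8.10. Aspg, an asparaginase, was at 183, 158 and 143 CPM across the Ctl libraries, against 270, 279 and 248 CPM in Li-KO (0.72 ± 0.13; adjusted p = 0.0144). Sirt3, a mitochondrial deacetylase, was at 67.2, 59.4 and 57.5 CPM across the Ctl libraries, against 89.1, 103 and 88.1 CPM in Li-KO (0.61 ± 0.12; adjusted p = 0.0188). Car5a, the carbonic anhydrase that supplies bicarbonate to Cps1, was at 50.5, 39.7 and 36.8 CPM across the Ctl libraries, against 63.5, 72.9 and 70.2 CPM in Li-KO (0.70 ± 0.15; adjusted p = 0.0215). All 4 of these genes were higher in each Li-KO library than in any Ctl library.

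Oat, ornithine aminotransferase, which draws ornithine out of the cycle, was at 933, 690 and 816 CPM across the Ctl libraries, against 1507, 2022 and 1137 CPM in Li-KO (log2 fold change 0.94 ± 0.23, SE; edgeR adjusted p = 0.0343). Agmat, annotated as agmatinase, was at 115, 95.5 and 107 CPM across the Ctl libraries, against 136, 159 and 144 CPM in Li-KO (0.46 ± 0.12; adjusted p = 0.0427). Aqp8, a water and ammonia channel, was at 14.9, 38.8 and 22.0 CPM across the Ctl libraries, against 54.9, 86.6 and 48.3 CPM in Li-KO (1.33 ± 0.35; adjusted p = 0.0436). Li-KO was above Ctl in every library for these genes too. Asns, asparagine synthetase, was at 14.7, 3.23 and 1.86 CPM across the Ctl libraries, against 89.0, 65.2 and 14.97 CPM in Li-KO (3.09 ± 0.84; adjusted p = 0.0480), where the lowest Li-KO library was just above the highest Ctl library.

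Prodh, Slc38a3 and Slc25a12 kept their call whichever of the 6 libraries was left out. Gpt was lost without Li-KO replicate 1 (adjusted p = 0.0646), Cad without Ctl replicate 1 or Li-KO replicate 1 (up to 0.0839), and Car5a, Aspg and Sirt3 without Ctl replicate 1, Ctl replicate 2 or Li-KO replicate 1 (up to 0.0937). Asns and Oat were lost without Ctl replicate 1, Ctl replicate 2, Li-KO replicate 0 or Li-KO replicate 1 (up to 0.162), Aqp8 without Ctl replicate 0, Ctl replicate 2, Li-KO replicate 0 or Li-KO replicate 1 (up to 0.142), and Agmat whichever library was left out (0.0515 to 0.162). Other forms of the carriers and of arginase were low. Slc25a2, a further ornithine carrier, was at 0.62 to 1.22 CPM over the 6 libraries, and Arg2, the mitochondrial arginase, was under 0.3 CPM in all of them and was not tested.

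**Figure D5:**
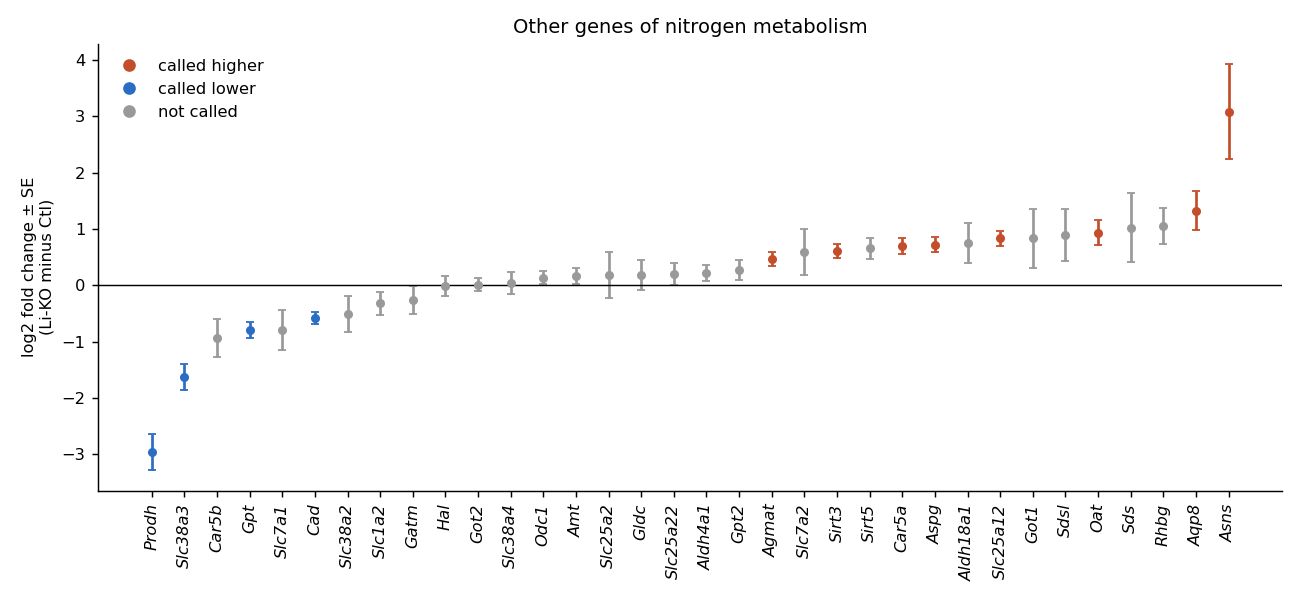
Log2 fold change ± SE (vertical axis, Li-KO minus Ctl) of the tested genes of the nitrogen list, 1 uncalled gene left out, ordered by value, with called genes in colour. Prodh (-2.96) and Slc38a3 (-1.63) lie at the low end and Asns (3.09) at the high end.

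Because Glul marks hepatocytes next to the central vein and Gls2 those near the portal vein, other genes of each zone were examined. Of 19 tested pericentral genes, 2 were called higher, 3 lower and 14 did not pass, with a median log2 fold change of -0.27. Of 17 tested periportal genes, Gls2 included, 4 were called higher and 3 lower, with a median of 0.47. Over all genes tested, edgeR called 6.11% higher and 5.9% lower. The summed pericentral level was 7195 to 8144 CPM across the Ctl libraries, against 4713 to 7087 CPM in Li-KO, which did not overlap. Much of this sum came from Cyp2c29, Cyp2a5 and Rgn. Their means were 1483, 1241 and 1236 CPM in Ctl, against 614, 618 and 594 CPM in Li-KO. The gap in the sum therefore leans on these abundant genes, and no sum without them was made. The periportal sum was 8758 to 15980 CPM in Ctl and 12690 to 17210 CPM in Li-KO, which overlapped. Cyp2a5, Rgn and Cyp2c29 were the lower pericentral genes, with log2 fold changes of -1.01 ± 0.22, -1.06 ± 0.25 and -1.27 ± 0.31 (SE; edgeR adjusted p 0.0260, 0.0307 and 0.0332). Slc22a3, an organic cation transporter, was higher by a log2 fold change of 1.70 ± 0.32 (adjusted p = 0.0157), as was Oat. These 4 genes were each lost without Ctl replicate 1, Ctl replicate 2 or Li-KO replicate 1 (adjusted p up to 0.115). Among periportal genes, Ftcd, which breaks down histidine products, and Hsd17b13, a lipid droplet protein, were higher by log2 fold changes of 1.25 ± 0.19 and 1.15 ± 0.19 (adjusted p = 0.00848 and 0.00979) and were called whichever of the 6 libraries was left out. Aldh1b1, a mitochondrial aldehyde dehydrogenase, was higher by 2.10 ± 0.45 (adjusted p = 0.0256), and was lost without Ctl replicate 1, Ctl replicate 2 or Li-KO replicate 1 (up to 0.0986). The called lower periportal genes were Gls2, Pigr (-0.81 ± 0.20; edgeR adjusted p = 0.0371) and Agxt (-1.34 ± 0.37; adjusted p = 0.0492). Pigr kept its call in 1 of the 6 fits without a library and Agxt in 0.

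Finally, genes with a profile most like that of Otc were sought, by Euclidean distance between centred log2 CPM values over the 6 libraries. The nearest was Abat, the mitochondrial enzyme that breaks down gamma-aminobutyrate, at a distance of 0.387. It was at 542, 455 and 525 CPM across the Ctl libraries, against 132, 88.9 and 93.5 CPM in Li-KO. Btg2 (0.465), Zfp275 (0.588), Arl13b (0.622) and Gchfr (0.631) followed. Their log2 fold changes ran from -2.40 for Zfp275 to -2.13 for Gchfr, on either side of the value of Otc. Since likeness was sought in the same 6 libraries, these values are a description.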

How the data were processed

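Liver RNA in 6 libraries, 3 Ctl and 3 Li-KO, was read from 1 deposited table of genes. Per the labels' protocols, a stranded total RNA kit was used for the libraries, which can hold unspliced transcripts, and the submitters' processing notes name STAR, Cufflinks, Cuffdiff and mm10, with no versions. Per the file headers, the authors deposited, for each gene and library, an estimated count of raw fragments and an FPKM value. Of these count values, 3.29% were not whole, and they were rounded here. The 77 genes that the authors' run skipped in at least 1 library (51 in all libraries) were left out of totals and tests. Symbols came from a gene table, which matched 48051 of 48432 IDs, and coordinates from GENCODE M21.

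The main test was edgeR's quasi-likelihood test (edgeR 4.0.16, R 4.3.3, TMM scaling, filterByExpr with a minimum count of 10 and a minimum total of 15), with Benjamini-Hochberg adjustment over 16533 genes and a threshold of 0.05. It was tested on simulated data. Alternatives were RLE and upper quartile scaling, no filter, skipped genes kept at 0, limma-voom (limma 3.58.1), limma on log2(FPKM + 1) and log2(FPKM + 0.1), DESeq2 1.42.0, the replicate number as a covariate and leaving out each library. Ratios were compared by exact permutation tests. Fold changes come from the edgeR fit, with an SE of the fold change divided by the square root of its F statistic, from which the 95% intervals were made. CPM values use the TMM-scaled library sizes.

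The 10 genes and all lists were chosen with earlier results of these data known. All 10 are named, with the called genes of the nitrogen list, up to 4 called genes with the smallest p of each zonation list, other forms of the 10 genes (1 is not reported here), and the 5 genes nearest to the gene with the smallest p. From the cell type lists, counts, sums and markers at 0 are given, with a range of log2 fold changes for the bile duct list. Spryd4, Glud-ps and Gm11586 were named for their overlap or likeness, and Tdo2, Sox9, Vil1, Pck1, Tat, Sds, Pigr and Agxt after their values were seen.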

Additional observations from a re-analysis of the deposited data

How the results depend on the processing

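Otc was lower and past the threshold in all 15 alternatives (log2 fold change -2.37 to -2.21), and none of the 10 genes changed sign in any of them. Main counts were 2 genes higher and 2 lower of the 10, and 8 higher and 4 lower of the nitrogen list. Leaving out each library gave 0 to 2 of the 10 higher and 1 to 2 lower. It gave 1 to 11 of the nitrogen list higher and 2 to 4 lower. The 0 came without Ctl replicate 1, Ctl replicate 2, Li-KO replicate 1 or Li-KO replicate 2, where edgeR gave 3 at an unadjusted p under 0.05. DESeq2 and limma-voom each gave 3 higher with all libraries. On log2(FPKM + 1), limma gave 1 of the 10 higher and 4 of the nitrogen list. On log2(FPKM + 0.1), it gave 0 of the 10 (3 unadjusted) and 4 of the list. Asl lost its call in 7 of 15 alternatives, Slc25a13 in 6 and Gls2 in 5, and the cause was not tested. The fits without a library also had fewer libraries, and the part of that was not tested either. DESeq2 called 3 pericentral genes higher and 5 lower, and 7 periportal genes higher and 4 lower. Over all genes, edgeR called 1010 higher and 976 lower, DESeq2 1496 and 1515, and the fits without a library 198 to 1102 and 234 to 1447.

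The ratio differences kept their sign when a library was left out, at -3.05 to -2.56 for Otc to Ass1, 0.48 to 0.59 for Asl to Ass1 and 0.12 to 1.33 for Glul to Gls2. Replicate numbers were shared between the groups, but over all tested genes same-numbered libraries did not deviate together (correlations 0.018, 0.081 and 0.067). Not every library correlated best with its own number. Some of the 10 genes did deviate alike in replicate 0 of both groups. Relative to the mean of the other libraries of its group, Gls2 was at 1.68 in Ctl and 1.73 in Li-KO, and Glul at 0.466 and 0.495. For Otc these ratios were 0.938 and 1.14, on either side of even. With a replicate block, 3 of the 10 genes were higher and 3 lower, adding Slc25a15 (log2 fold change 0.85) and Glul (-0.54), and 9 of the nitrogen list were higher and 4 lower. The edgeR adjusted p with the block was 0.00535 for Gls2 and 0.0446 for Glul, against 0.0325 and 0.340 without it. A sign-flip test of the ratios over the 3 pairs gave p = 0.25 for each, by exact enumeration. With 3 pairs, 0.25 is the smallest p that this test allows. At 2195 or more fragments per library for each of the 10 genes, counting error is small beside the spread between libraries, and 3 libraries per group limit the tests.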
